A study of Mus musculus with 12 samples.

Results

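The expression of 8 protein-coding genes, Abi3bp, Tmem260, Klhl14, Lmo7, Zfp189, Brinp3, Lmbr1 and Sh3kbp1, was followed across 12 RNA-seq libraries of the mouse medial prefrontal cortex (mPFC). They were chosen by their counts from the 34745 genes of the deposited table: in an earlier look at these data, they were lower on both sides of the cortex of nerve-injured mice than in naive mice. These values chose the genes, so the difference from naive mice is given below as a description without a test. All 8 genes passed the filter on low counts, which left 15808 genes for testing.

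The animals were wild-type male mice. Chronic constriction injury (CCI), a model of neuropathic pain in which loose ligatures are tied around the sciatic nerve, was made on the left, and tissue was taken at day 28. The groups were the left mPFC of injured mice, on the side of the injury and called ipsilateral (4 libraries), the right mPFC of injured mice, called contralateral (4 libraries), and the mPFC of untreated naive mice after habituation, also at day 28 (4 libraries). The labels give no hemisphere for the naive mice, the naive mice were not operated on, and both CCI sides were set against the same 4 naive libraries. Left and right CCI libraries that carry one number in their codes were read as one mouse, which the labels do not state, and the labels do not say that libraries of a group came from separate animals, so p-values measure the spread between these samples, which may be technical. Total counts were 17.5 to 20.6 M (mega-counts) in ipsilateral, 16.1 to 17.9 M in contralateral and 16.8 to 17.8 M in naive libraries. Slc17a7, the vesicular glutamate transporter of cortical excitatory neurons, was abundant in every library, at 1775 to 2002 CPM (counts scaled to the library's TMM-adjusted total) in ipsilateral, 1657 to 1912 CPM in contralateral and 1829 to 1871 CPM in the naive libraries. In bulk tissue, fewer cells of a type and less RNA per cell cannot be told apart.

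The mPFC takes part in the emotional and cognitive side of pain and sends descending signals that modulate it. The 8 genes are not known as one pathway. Abi3bp encodes a secreted matrix protein that binds the SH3 domain of the actin regulator ABI3, and Tmem260 an enzyme of the endoplasmic reticulum that, in human cells, adds O-linked mannose to plexins and to the MET and RON receptors. Brinp3 belongs to a family of neural proteins induced by bone morphogenetic protein and retinoic acid, and Lmbr1 encodes a multi-pass membrane protein. Klhl14 encodes a BTB-Kelch protein that binds torsinA, Lmo7 a LIM-domain protein that links nectin-afadin junctions to actinin, Sh3kbp1 (CIN85) an SH3 adaptor of receptor endocytosis, and Zfp189 a KRAB zinc finger protein studied in mouse prefrontal cortex under chronic stress, where the transcription factor CREB acts upstream of it.

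The genes lie on 7 chromosomes, and both members of chromosome 14, Tmem260 and Lmo7, are far apart on it. Coordinates are those of the deposited table, for which the submitters' processing notes name GRCm38. Abi3bp (ENSMUSG00000035258) spans chr16:56477846-56690128 on the plus strand and Tmem260 (ENSMUSG00000036339) chr14:48446128-48515135 on the plus strand. Brinp3 (ENSMUSG00000035131) spans chr1:146494760-146902472 on the plus strand and Lmbr1 (ENSMUSG00000010721) chr5:29229802-29378390 on the minus strand. Lmo7 (ENSMUSG00000033060) spans chr14:101729957-101934710 on the plus strand, and the position of Klhl14 is given with its values. Sh3kbp1 (ENSMUSG00000040990) spans chrX:159627272-159978069 and Zfp189 (ENSMUSG00000039634) chr4:49521176-49531517, both on the plus strand. Most are long genes. The span was above the median of tested genes, 22.4 kb, for 7 of the 8. Zfp189 (10.3 kb) was the exception, and Brinp3 was the longest at 408 kb. A gene length was also worked out from the authors' counts, FPKM and total counts, taking FPKM as scaled by those totals. It was above its median of 5088 bp for 6 of the 8.

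Because the members lay on the same side of naive, the DNA ahead of their start sites was read. RefSeq (GRCm38.p6) start windows of 300 bases matched 6 of the 8 genes, 13 windows in all. The stretches upstream of 3 of them are printed here with motifs in capitals. They are TGACG (the core of the cAMP response element, CRE, shown as CGTCA where it lies on the other strand), the GC box GGGCGG (shown as CCGCCC on the other strand), the CCAAT box, and the TATA box written TATAAA. The first is chr4:49521094-49521175 (plus strand), the whole gap between the divergent starts of Mrpl50 and Zfp189. The others are chr5:29378391-29378640 (minus strand) ahead of Lmbr1 and chr14:48445873-48446122 (plus strand) ahead of one of the Tmem260 starts.
Zfp189: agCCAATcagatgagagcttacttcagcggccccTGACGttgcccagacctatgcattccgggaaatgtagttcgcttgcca
Lmbr1: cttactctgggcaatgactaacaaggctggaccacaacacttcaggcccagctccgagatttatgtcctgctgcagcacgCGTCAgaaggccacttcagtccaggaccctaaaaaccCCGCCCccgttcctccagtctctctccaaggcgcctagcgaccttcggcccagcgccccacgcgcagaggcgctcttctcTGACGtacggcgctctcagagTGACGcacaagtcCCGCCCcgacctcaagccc
Tmem260: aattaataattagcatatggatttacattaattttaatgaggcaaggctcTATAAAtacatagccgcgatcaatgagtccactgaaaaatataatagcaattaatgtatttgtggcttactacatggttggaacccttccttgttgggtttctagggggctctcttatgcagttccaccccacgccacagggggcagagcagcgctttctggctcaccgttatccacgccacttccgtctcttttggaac

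The 82 bases ahead of Zfp189 hold 1 CRE core and 1 CCAAT box, and the 250 bases ahead of Lmbr1 hold 3 CRE cores and 2 GC boxes. The Tmem260 stretch holds 1 TATA box, and the CRE core of Tmem260 lies in the window of its other start. On either strand, TGACG occurred in 20.8% of all 32851 RefSeq windows of this length and in 3 of the 13 windows of the members (those of Lmbr1, Tmem260 and Zfp189). The full palindrome TGACGTCA, which contains TGACG, occurred in 1.79% of all windows and in 0 of the 13. GGGCGG occurred in 35.7% of all windows and in 5 of the 13 (those of Lmbr1, Lmo7 and Sh3kbp1). CCAAT occurred in 37.4% and in 4 (Brinp3 and Zfp189), and TATAAA in 13.6% and in 2 (Sh3kbp1 and Tmem260). Some windows of Brinp3 and of Sh3kbp1 overlap almost wholly, so the 13 windows are not separate. No motif of this set was found for all 6 matched genes.

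Among the matrix and membrane genes, Abi3bp showed the largest difference of the 8 in its ipsilateral value. It was measured at 9.48, 10.7, 9.49 and 10.3 CPM in ipsilateral libraries 1 to 4, at 7.95, 11.6, 13.6 and 15.7 CPM in contralateral libraries 1 to 4, and at 26.9, 16.7, 23.4 and 31.1 CPM in naive libraries 1 to 4. The ipsilateral libraries were nearly level, the contralateral ones were spread, and the highest CCI library (contralateral 4) lay just under the lowest naive one (naive 2). The mean was 10.01 ± 0.62 CPM ipsilateral, 12.2 ± 3.28 CPM contralateral and 24.5 ± 6.11 CPM for naive (SD, n = 4 a group). The log2 fold change was -1.29 (SE 0.21) for ipsilateral against naive and -1.01 (SE 0.21) for contralateral against naive, or 40.8% and 49.8% of the naive level. Fibroblasts are a known source of matrix proteins such as this one. The summed level of 12 meningeal and fibroblast markers was 49.7 to 72.9 CPM in ipsilateral, 44.2 to 97.5 CPM in contralateral and 66.2 to 93.1 CPM in the naive libraries. Of these 12 markers, 11 had a negative log2 fold change for ipsilateral against naive (median -0.51) and 6 for contralateral against naive (median 0.02), 0 passed the test in either, and none was at 0 in every library. Other lists leaned the same way in ipsilateral against naive. Negative there were 6 of 6 endothelial, 6 of 7 mural, 5 of 5 blood cell and 7 of 8 astrocyte markers. So were 6 of 8 microglia, 4 of 5 oligodendrocyte precursor and 2 of 3 tested choroid plexus and ependyma markers. Fewer were negative among oligodendrocyte (0 of 9), excitatory neuron (4 of 9), interneuron (2 of 8) and striatal (3 of 8) markers. Of all tested genes, 50.1% were negative in ipsilateral and 49.9% in contralateral against naive. In contralateral against naive, negative were 1 of 6 endothelial, 2 of 7 mural, 4 of 5 blood cell and 1 of 8 astrocyte markers. On that side, 1 of 8 microglia, 0 of 5 oligodendrocyte precursor and 1 of 3 choroid plexus and ependyma markers were negative. So were 0 of 9 oligodendrocyte, 5 of 9 excitatory neuron, 5 of 8 interneuron and 0 of 8 striatal markers. The part of fibroblasts or of any other cell type in the Abi3bp values was not tested.

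Tmem260 was near one level in all CCI libraries. It was measured at 10.1, 10.7, 9.20 and 9.38 CPM in ipsilateral libraries 1 to 4, at 10.2, 10.3, 8.60 and 9.52 CPM in contralateral libraries 1 to 4, and at 24.0, 19.2, 11.2 and 22.0 CPM in naive libraries 1 to 4. The naive libraries were not alike: naive 3 lay next to the CCI libraries and the other naive libraries well above them. The mean was 9.84 ± 0.69 CPM ipsilateral, 9.64 ± 0.77 CPM contralateral and 19.1 ± 5.62 CPM for naive (SD, n = 4 a group), with log2 fold changes of -0.96 (SE 0.18) and -0.99 (SE 0.18) for the left and the right side against naive. Without naive 3 the ipsilateral value became -1.14 and the contralateral value -1.17.

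Brinp3 was measured at 20.9, 21.2, 21.2 and 20.5 CPM in ipsilateral libraries 1 to 4, at 18.7, 20.5, 22.4 and 24.2 CPM in contralateral libraries 1 to 4, and at 32.9, 22.4, 31.1 and 29.5 CPM in naive libraries 1 to 4. The ipsilateral libraries were almost identical, with a coefficient of variation of 1.56%, against 15.9% in naive libraries. Contralateral 4 was above naive 2, so the right side overlapped naive and the left side did not. The log2 fold change was -0.47 (SE 0.11) for ipsilateral and -0.44 (SE 0.11) for contralateral against naive.

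Lmbr1 was measured at 28.3, 29.2, 21.3 and 29.8 CPM in ipsilateral libraries 1 to 4, at 22.4, 22.1, 27.2 and 21.04 CPM in contralateral libraries 1 to 4, and at 32.8, 30.9, 33.7 and 29.4 CPM in naive libraries 1 to 4. The CCI libraries fell on both sides of a gap. The 4 lower ones (ipsilateral 3 and contralateral 1, 2 and 4) were at 21.04 to 22.4 CPM and the 4 higher ones (ipsilateral 1, 2 and 4 and contralateral 3) at 27.2 to 29.8 CPM, so that each CCI number had 1 library on each side of the gap. Ipsilateral 4 was above naive 4, and the left side overlapped naive for this reason. The log2 fold change was -0.22 (SE 0.11) for ipsilateral and -0.45 (SE 0.11) for contralateral against naive. Without ipsilateral 3, the ipsilateral value was -0.12, the nearest to 0 that leaving out 1 library gave for either side of any of the 8 genes against naive.

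Among the intracellular genes, Klhl14 had the lowest level of the 8, with 30 to 91 counts in a library, so its values carry the most counting error. Klhl14 (ENSMUSG00000042514) spans chr18:21550377-21654718 on the minus strand. It was measured at 2.51, 2.33, 2.42 and 1.88 CPM in ipsilateral libraries 1 to 4, at 1.64, 2.31, 2.43 and 2.27 CPM in contralateral libraries 1 to 4, and at 5.07, 2.59, 3.77 and 5.04 CPM in naive libraries 1 to 4. The CCI sides covered one range, and naive 2 lay close above it. The mean was 2.28 ± 0.28 CPM ipsilateral, 2.17 ± 0.35 CPM contralateral and 4.12 ± 1.19 CPM for naive (SD, n = 4 a group), with log2 fold changes of -0.85 (SE 0.21) and -0.93 (SE 0.22) for the left and the right side against naive.

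Lmo7, the most abundant of the 8 in CPM, was measured at 60.1, 66.1, 66.2 and 59.9 CPM in ipsilateral libraries 1 to 4, at 66.6, 58.3, 63.3 and 71.8 CPM in contralateral libraries 1 to 4, and at 84.5, 72.9, 84.8 and 79.3 CPM in naive libraries 1 to 4. Every CCI library was below every naive library, though contralateral 4 and naive 2 almost met. The log2 fold changes were -0.35 (SE 0.07) for ipsilateral and -0.31 (SE 0.07) for contralateral against naive.

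Sh3kbp1 was measured at 26.7, 29.2, 27.3 and 22.5 CPM in ipsilateral libraries 1 to 4, at 23.7, 25.9, 23.3 and 25.0 CPM in contralateral libraries 1 to 4, and at 29.4, 29.6, 32.8 and 30.8 CPM in naive libraries 1 to 4. The groups did not overlap, but ipsilateral 2 was within a fraction of 1 CPM of naive 1. The log2 fold changes were -0.21 (SE 0.08) for ipsilateral and -0.32 (SE 0.08) for contralateral against naive. Leaving out ipsilateral 4, the lowest of the left libraries, gave an ipsilateral value of -0.14.

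Zfp189 was measured at 4.798, 6.64, 5.75 and 5.29 CPM in ipsilateral libraries 1 to 4, at 5.32, 6.44, 6.34 and 6.20 CPM in contralateral libraries 1 to 4, and at 9.09, 7.71, 7.77 and 9.09 CPM in naive libraries 1 to 4. All CCI libraries were below all naive ones, with ipsilateral 2 nearest to them. The log2 fold changes were -0.58 (SE 0.12) for ipsilateral and -0.47 (SE 0.12) for contralateral against naive.

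**Figure D1:**
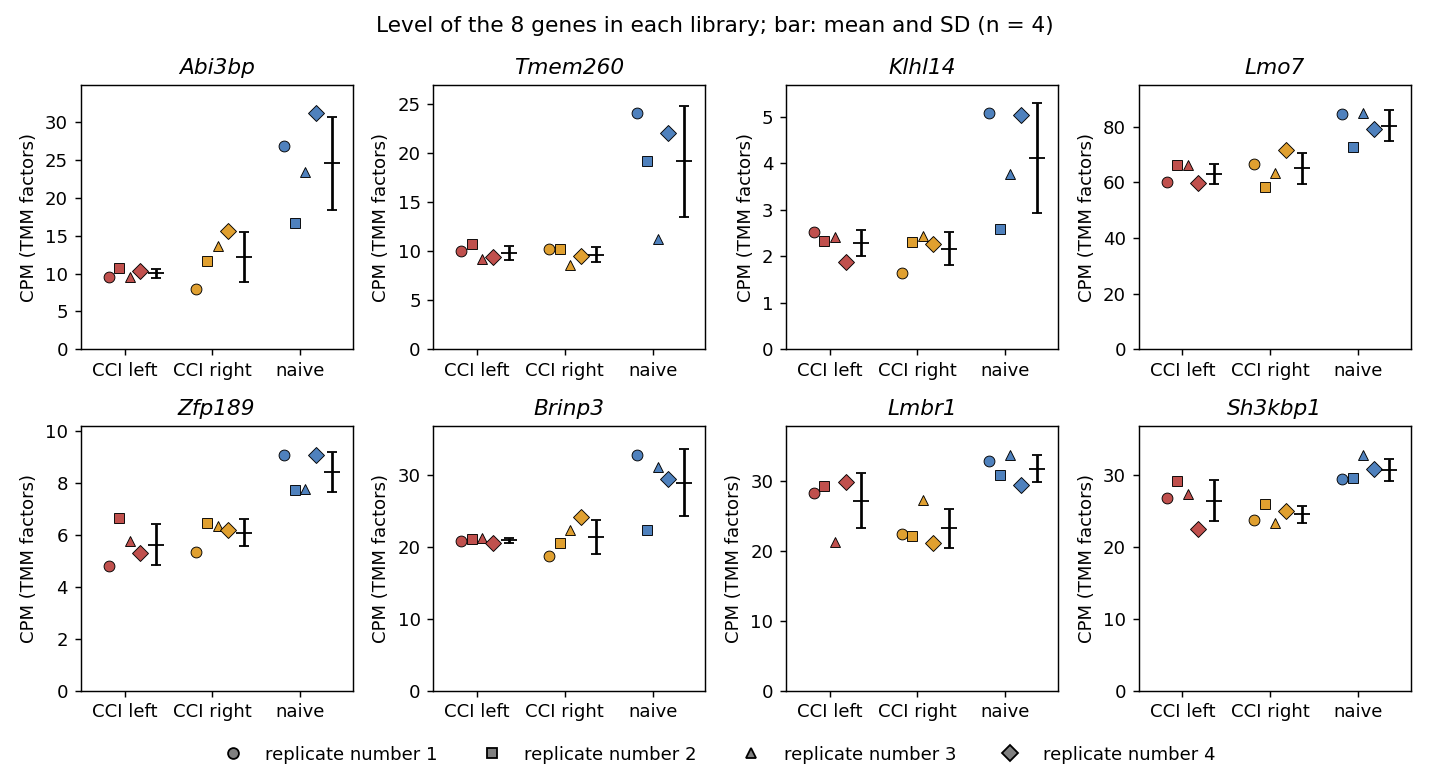
Level of each of the 8 genes in each library, in CPM with TMM factors, for CCI left (ipsilateral), CCI right (contralateral) and naive; marker shapes give the replicate number, and the bars give the mean and SD (n = 4). Tmem260 sits at 8.60 to 10.7 CPM in all CCI libraries and at 11.2 to 24.0 CPM in naive ones, and Lmbr1 shows CCI libraries on both sides of a gap.

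With each mouse as the unit, the counts of both sides of a CCI mouse summed, the log2 fold changes against naive were -1.14 (SE 0.20) for Abi3bp, -0.97 (SE 0.21) for Tmem260 and -0.89 (SE 0.19) for Klhl14. Those of Zfp189 (-0.52, SE 0.11) and Brinp3 (-0.45, SE 0.10) were intermediate. Lmbr1 (-0.33, SE 0.06), Lmo7 (-0.32, SE 0.05) and Sh3kbp1 (-0.27, SE 0.06) were nearest to 0.

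Every ipsilateral library lay below every naive library for 7 of the 8 genes, the exception being Lmbr1, and 2.77% of all tested genes (438 of 15808) did so. Every contralateral library did for 7 of the 8, the exception being Brinp3, against 1.16% of all tested genes (183). All 8 CCI libraries lay below all naive libraries for 6 genes (Abi3bp, Tmem260, Klhl14, Lmo7, Zfp189 and Sh3kbp1), against 0.272% of all tested genes (43). The choice of the genes used these contrasts, so nothing is read from the counts. The count of 6 became 7 without ipsilateral 4 or naive 4, when Lmbr1 joined, and without contralateral 4 or naive 2, when Brinp3 joined.

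Levels between genes were compared on the FPKM scale, which the authors scaled by gene length. In naive libraries the order of mean FPKM was Abi3bp 5.19 ± 1.29, Lmo7 4.11 ± 0.29, Brinp3 2.81 ± 0.45, Zfp189 2.62 ± 0.25, Lmbr1 2.56 ± 0.16, Tmem260 1.89 ± 0.56, Sh3kbp1 1.44 ± 0.07 and Klhl14 0.54 ± 0.16 (SD, n = 4). Abi3bp and Lmo7 lay within their SDs of each other, as did each pair of neighbours from Brinp3 down to Sh3kbp1. Lmo7 was apart from Brinp3, and Sh3kbp1 from Klhl14. In the CCI libraries, Abi3bp was at 2.09 ± 0.14 FPKM ipsilateral and 2.59 ± 0.69 FPKM contralateral, so its mean was below that of Lmo7 there (3.19 ± 0.20 FPKM ipsilateral and 3.34 ± 0.32 FPKM contralateral). Klhl14 was the lowest of the 8 in all 3 groups.

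The order of libraries within a group differed between the genes. Naive 2 was the lowest naive library for 5 of the 8 genes (Abi3bp, Klhl14, Lmo7, Zfp189 and Brinp3), and it was the lowest for 26.1% of all tested genes; for Tmem260, Lmbr1 and Sh3kbp1 the lowest were naive 3, naive 4 and naive 1. Naive 1 was the highest for 4 (Tmem260, Klhl14, Zfp189 and Brinp3), against 24.3% of all tested genes. On the left, ipsilateral 4 was the lowest for Klhl14, Lmo7, Brinp3 and Sh3kbp1 (26.7% of all tested genes) and ipsilateral 2 the highest for Abi3bp, Tmem260, Zfp189 and Sh3kbp1 (25.3%). On the right, contralateral 1 was the lowest for Abi3bp, Klhl14, Zfp189 and Brinp3 (22.2%). Contralateral 1 also carried the highest summed level of 8 striatal markers, 393 CPM; the ranges were 187 to 224 CPM in ipsilateral, 183 to 393 CPM in contralateral and 197 to 228 CPM in the naive libraries. The part of tissue from the striatum in the values of that library was not tested.

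**Figure D2:**
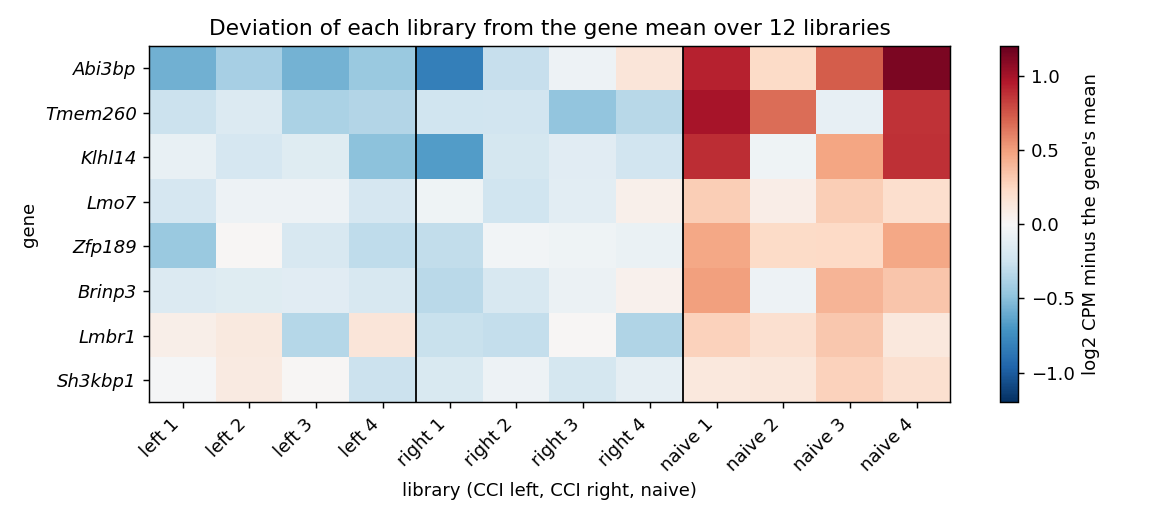
Deviation of each library from the gene's mean over the 12 libraries, in log2 CPM (colour), with the 8 genes as rows and CCI left, CCI right and naive libraries as columns. Naive 2 is pale for Abi3bp, Klhl14, Lmo7 and Brinp3, and naive 3 is the one naive library below the mean for Tmem260.

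The rule did not set the sides of the injured mice against each other, and that difference was tested. It did ask both sides to be below naive, which limits how far the sides of a chosen gene can differ, so a low count of genes passing says nothing of the sides in general. None of the 8 passed in contralateral against ipsilateral (edgeR quasi-likelihood test, Benjamini-Hochberg adjusted over 15808 genes), where 0.0% of all tested genes passed. At an unadjusted p under 0.05, 0 of the 8 and 1322 of all tested genes were found, and DESeq2 and limma voom each called 0 of the 8. Lmbr1 had the smallest p, with means of 23.2 ± 2.73 CPM in contralateral and 27.1 ± 3.95 CPM in ipsilateral libraries (SD, n = 4 each). Its log2 difference was -0.23 (SE 0.11; 95% interval -0.46 to 0.0024; adjusted p = 0.598 in edgeR), and contralateral was lower than ipsilateral for 3 of 4 CCI numbers. Abi3bp had the highest upper bound, with a log2 difference of 0.29 (SE 0.21; -0.17 to 0.74; adjusted p = 0.712 in edgeR), and contralateral was higher for 3 of 4 numbers. The value was 0.14 without contralateral 4 and 0.44 without contralateral 1.

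For the others the intervals bound how far the sides can differ at this depth. The log2 difference, contralateral over ipsilateral, was -0.03 (-0.43 to 0.37) for Tmem260, -0.08 (-0.56 to 0.40) for Klhl14 and -0.11 (-0.28 to 0.06) for Sh3kbp1. It was 0.04 (-0.11 to 0.20) for Lmo7, 0.11 (-0.16 to 0.37) for Zfp189 and 0.03 (-0.20 to 0.27) for Brinp3. The adjusted p-values of these 6 genes in edgeR ran from 0.701 (Sh3kbp1) to 0.972 (Tmem260). An interval that spans 0 does not show that the sides were equal. Without contralateral 2, 159 of all tested genes passed this comparison, and without both libraries of CCI number 2, an alternative chosen after seeing the data, 286 did. Of the 8 members, 0 passed under either.

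**Figure D3:**
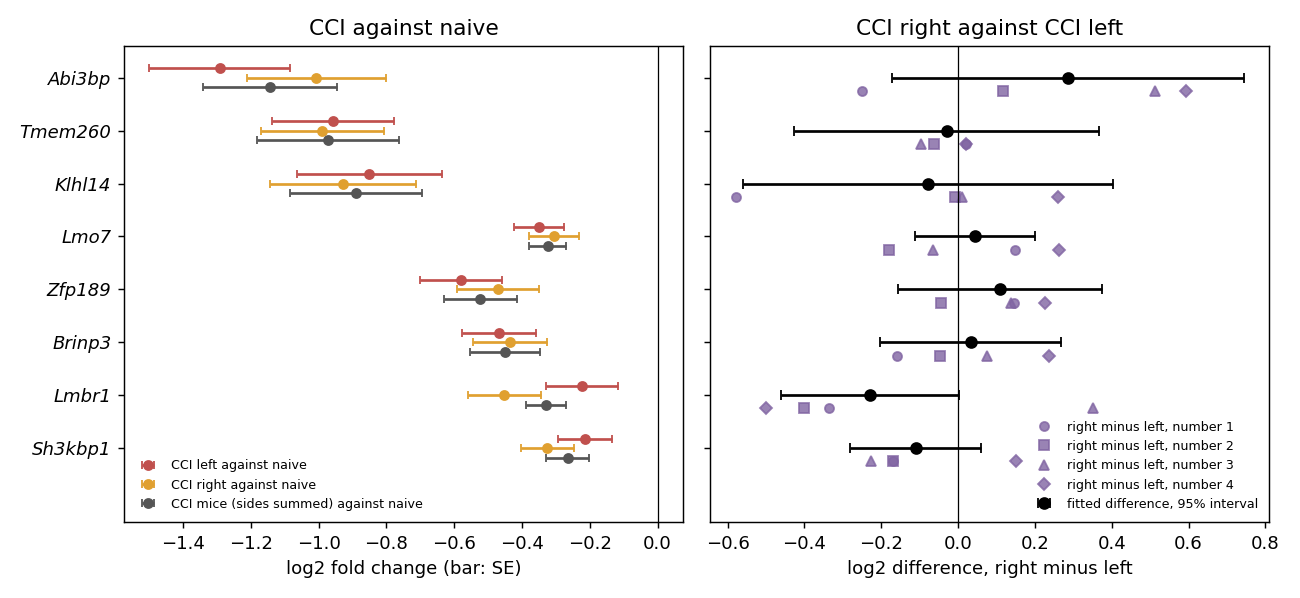
Log2 fold changes of the 8 genes. Left panel, CCI left, CCI right and CCI mice (sides summed) against naive with SE; right panel, CCI right over CCI left, the fitted difference with its 95% interval (black) and the difference for each of the 4 CCI numbers (purple). Every point in the left panel is below 0, and every interval in the right panel spans 0.

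Genes tied to the members by sequence, by a known partner or by position were not used to choose them and were tested in all comparisons. Of 73 such genes, 70 passed the filter: 51 of 52 partners and relatives, 3 of 5 gene models overlapping a member, and all 16 nearest tested neighbours. The lists were chosen with earlier results of these data known. Reads of an overlapping model may be those of the member itself, so such a model is not separate from the choice of that member. By edgeR's quasi-likelihood test 0 of the 70 passed in ipsilateral against naive, 0 in contralateral against naive, 0 in contralateral against ipsilateral and 0 in CCI mice against naive mice. The share of all tested genes that passed was 0.0% in each comparison. DESeq2 and limma voom also called 0 of the 70 in each; of all tested genes, limma voom called 0 in each and DESeq2 called 9, 3, 0 and 31 in the same order of comparisons. At an unadjusted p under 0.05 there were 7 of the 70 in ipsilateral against naive (2 higher, 5 lower; 763 of all tested genes), 1 lower in contralateral against naive (597 of all), 10 in contralateral against ipsilateral (6 higher, 4 lower; 1322 of all) and 6 in CCI mice against naive mice (1 higher, 5 lower; 679 of all). A negative log2 fold change was found for 37 of the 70 in ipsilateral against naive (median -0.01), where 50.1% of all tested genes were negative, and for 36 of the 70 in contralateral against naive (median -0.00), where 49.9% were. The relatives, partners and neighbours thus lay around 0 where the members had been chosen to lie below it.

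**Figure D4:**
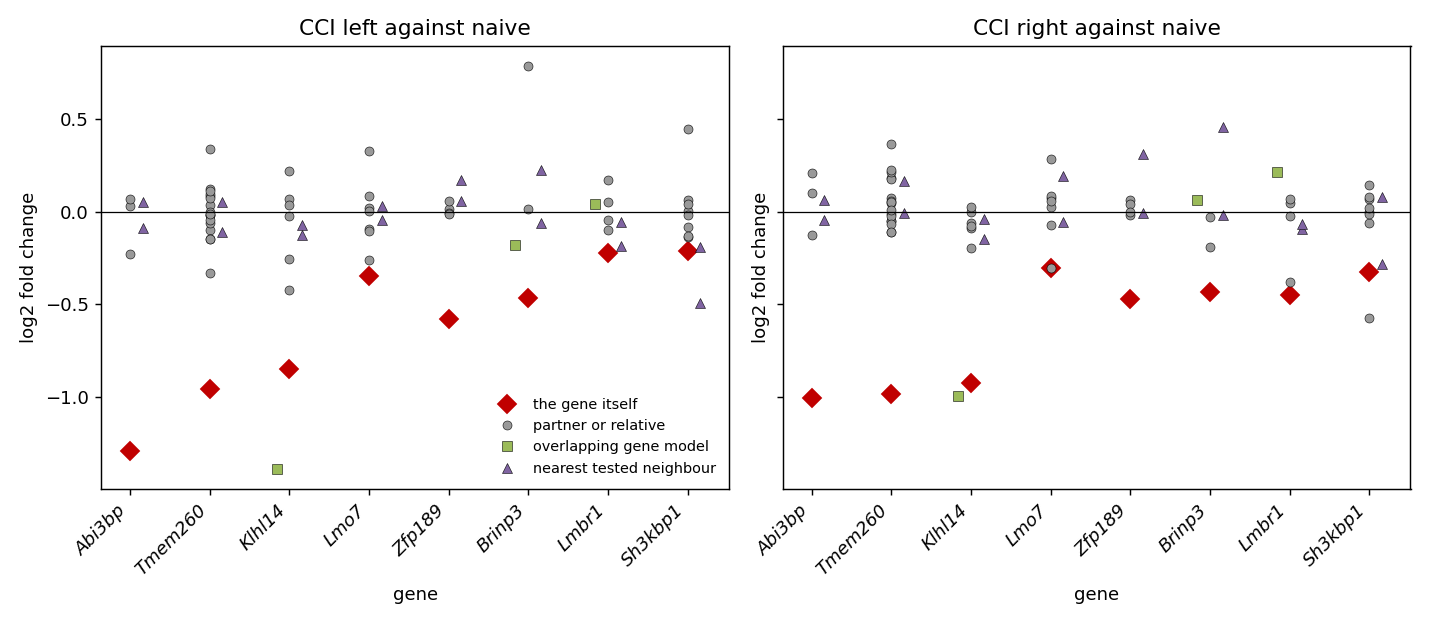
Log2 fold change of each member (diamonds) and of its partners and relatives (circles), overlapping gene models (squares) and nearest tested neighbours (triangles), for CCI left against naive (left panel) and CCI right against naive (right panel). The relatives and neighbours of Abi3bp, Tmem260 and Zfp189 cluster around 0, and the square beside Klhl14 is the antisense model 4930426D05Rik at -1.39 and -0.995.

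Abi3, whose product binds ABI3BP, had a log2 fold change of -0.23 (SE 0.12) in ipsilateral and 0.10 (SE 0.12) in contralateral against naive. It was at 4.66, 5.31, 5.72 and 5.26 CPM in contralateral libraries 1 to 4 and at 4.57, 4.17, 4.14 and 3.75 CPM in ipsilateral libraries 1 to 4, which did not overlap. The contralateral value over the ipsilateral one was 0.33 (SE 0.12), with an adjusted p of 0.592 in edgeR. For Tmem260, 17 genes were listed: the mannosyltransferases Tmtc1 to Tmtc4 (which act on cadherins), Pomt1 and Pomt2, the plexins, and the receptors Met and Mst1r (RON). Their log2 fold changes ran from -0.33 to 0.34 in ipsilateral and from -0.11 to 0.36 in contralateral against naive, with 10 and 7 of the 17 negative. Tmtc1 was at 0.08 and -0.11, Tmtc2 at -0.02 and 0.07, Tmtc3 at -0.10 and -0.05, and Tmtc4 at -0.02 and -0.01 on the left and right sides. Plxnb1, the receptor of semaphorin 4D, was at 0.18 (SE 0.09) in contralateral against naive, with an adjusted p of 1.00 in edgeR. Without contralateral 2, Plxna3 passed in contralateral against ipsilateral (0.38, SE 0.07, adjusted p = 0.0378 in edgeR); this plexin is named after its values were seen.

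Torsins are AAA+ ATPases of the endoplasmic reticulum and nuclear envelope, and LAP1, the product of Tor1aip1, is an activator of torsinA. In ipsilateral against naive, Tor1aip1 and Tor1b had the smallest p of the 70 related genes. Tor1aip1 was at 25.1, 19.8, 19.0 and 19.9 CPM in ipsilateral libraries 1 to 4, at 23.5, 24.3, 24.6 and 25.7 CPM in contralateral libraries 1 to 4, and at 32.1, 25.0, 32.3 and 22.9 CPM in naive libraries 1 to 4. Only naive 1 and naive 3 stood above all CCI libraries. The start of Tor1aip1 overlaps that of Tor1aip2 on the other strand, so reads there are uncertain. Its log2 fold change for ipsilateral against naive was -0.42 (SE 0.12, adjusted p = 0.865 in edgeR), and Tor1b had -0.26 (SE 0.08, adjusted p = 0.954 in edgeR). Tor1b was at 16.2 to 16.8 CPM in ipsilateral, 16.9 to 21.3 CPM in contralateral and 17.5 to 20.8 CPM in the naive libraries. Tor1b and Map3k15, a neighbour of Sh3kbp1, were the 2 of the 70 related genes with every ipsilateral library below every naive one, against 2.77% of all tested genes, which for 70 genes is a count near the background. Every contralateral library lay below naive for 0 of the 70, against 1.16% of all tested genes.

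The nectin-afadin group listed with Lmo7 includes Ssx2ip, which encodes the afadin-binding protein ADIP. Of the 70 related genes, Ssx2ip had the smallest p in contralateral against naive, at -0.31 (SE 0.10, adjusted p = 1.00 in edgeR). It was at 64.8 to 77.6 CPM in contralateral, 75.0 to 91.2 CPM in ipsilateral and 75.0 to 101 CPM in naive libraries. Limch1, the nearest relative of Lmo7, was at -0.09 on the left and 0.07 on the right against naive. Cd2ap, the relative of Sh3kbp1, was at -0.08 and -0.00. The relatives of Lmbr1 were at -0.10 and 0.05 (Lmbr1l), 0.05 and -0.02 (Lmbrd1), and 0.17 and 0.07 (Lmbrd2).

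Of the relatives of Brinp3, Brinp2 was at 132.7, 57.8, 131.9 and 58.4 CPM in ipsilateral libraries 1 to 4, at 58.5, 53.5, 50.2 and 53.6 CPM in contralateral libraries 1 to 4, and at 59.7, 52.4, 52.7 and 55.7 CPM in naive libraries 1 to 4. Ipsilateral 1 and ipsilateral 3 stood far above the other 10 libraries, which were alike. The log2 fold change was 0.79 (SE 0.27, adjusted p = 0.972 in edgeR) for ipsilateral against naive and -0.82 (SE 0.27, adjusted p = 0.592 in edgeR) for contralateral against ipsilateral. Ipsilateral 1 and 3 did not stand apart from the other left libraries in Brinp3. Brinp1 was at 158.9 to 222 CPM in contralateral, 200.3 to 230.7 CPM in ipsilateral and 196.8 to 222.6 CPM in naive libraries, with -0.19 (SE 0.09, adjusted p = 1.00 in edgeR) for contralateral against naive.

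The log2 fold changes of the 16 neighbours ran from -0.50 to 0.22 in ipsilateral and from -0.28 to 0.46 in contralateral against naive, and both lowest values were those of Map3k15, next to Sh3kbp1. Mrpl50, which encodes a mitochondrial ribosomal protein and starts on the other strand with 82 bases between it and Zfp189 (the stretch printed above), was at 31.9, 35.5, 34.6 and 31.3 CPM in ipsilateral libraries 1 to 4, at 29.1, 36.0, 31.6 and 30.8 CPM in contralateral libraries 1 to 4, and at 34.2, 30.6, 32.6 and 30.5 CPM in naive libraries 1 to 4. The 3 groups overlapped. Its log2 fold changes were 0.06 (SE 0.07) and -0.01 (SE 0.08) against naive, while Zfp189 was at -0.58 and -0.47. The divergent lincRNA 4632411P08Rik, ahead of Lmbr1, was at -0.05 and -0.07, both with an SE of 0.38, which leaves its direction unknown. Tfg, whose end lies 0.20 kb from that of Abi3bp, was at 0.05 and -0.05, both with an SE of 0.07. Peli2, which lies 185 kb from Tmem260 and encodes a ubiquitin ligase of Toll-like receptor signalling, had 21.4 to 23.9 CPM in contralateral and 15.97 to 21.4 CPM in ipsilateral libraries, with a log2 difference of 0.27 (SE 0.09, adjusted p = 0.592 in edgeR).

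The overlapping model 4930426D05Rik lies at chr18:21651448-21656105 on the plus strand, across the start of Klhl14 and antisense to it. It had 9, 22, 9 and 28 counts in ipsilateral libraries 1 to 4, 7, 5, 33 and 41 counts in contralateral libraries 1 to 4, and 53, 51, 25 and 39 counts in naive libraries 1 to 4. Contralateral 1 and 2 and ipsilateral 1 and 3 were the lowest, and ipsilateral 4 and contralateral 3 and 4 were within the naive range. The log2 fold changes were -1.39 (SE 0.55) and -0.995 (SE 0.53) against naive, and -1.17 (SE 0.41) for CCI mice against naive mice, with an adjusted p of 1.00 in edgeR. In the same comparison of mice Tor1aip1 had -0.31 (SE 0.11) and Map3k15, which encodes a MAP kinase kinase kinase, had -0.38 (SE 0.15), both at an adjusted p of 1.00 in edgeR. The sources do not state whether the counting used strand, so reads of Klhl14 and of its antisense model cannot be told apart. Of the others, Gm29514, across the start of Brinp3, was at -0.18 and 0.06, and C79130, inside Lmbr1, at 0.04 and 0.21. A230059L01Rik and Gm15584, both inside Brinp3, were too low to test.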

How the data were processed

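mPFC RNA of CCI and naive mice was sequenced from libraries of an mRNA kit, per the labels' protocols. The authors deposited raw counts of each gene in every library, together with FPKM values, which the authors had divided by gene length and by total counts. FPKM was used to compare levels between genes and was not tested. GO terms came as text from a further deposited table. HISAT2 2.0.4 and the builds GRCm38 and mm10 are named in the submitters' processing notes. How reads were counted, with what annotation and whether by strand, is not given in the sources used here.

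Counts were fitted with edgeR 4.0.16 in R 4.3.3 (TMM factors, filterByExpr by group, robust quasi-likelihood) in a fit of 12 libraries in 3 groups (15808 genes). A second fit had the sides of each CCI number summed (8 mice, 16179 genes). Tests were two-sided, with Benjamini-Hochberg adjustment over all tested genes and a threshold of 0.05. CPM values use TMM factors. SE were computed from each fold change with its quasi-likelihood F, and intervals are 95%. The edgeR fit was tested on simulated counts with known changes, for ipsilateral against naive. The other steps were not tested on simulated data. Alternatives were other scaling factors, no filter, DESeq2 1.42.0, limma voom (limma 3.58.1), the 2 compared groups alone, the replicate number as a block, and each library left out.

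The genes, the lists of related genes and the markers were chosen with earlier results of these data known. Named were all 8 genes, the 3 related genes of smallest p in each comparison (more where more passed), relatives by sequence and overlapping models. Of the neighbours, the 3 lying nearest to a member (Mrpl50, Tfg and 4632411P08Rik) were named as well. For each gene, the 2 tested genes with the smallest root mean square difference of centred log2 CPM (prior count 2) were also named. Strand and gene type came from GENCODE M21, in which 34267 of 34745 identifiers were found. Promoter sequences are from RefSeq (GRCm38.p6). Klhl14 and Abi3bp are named without a promoter sequence.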

Additional observations from a re-analysis of the deposited data

Results flagged for a closer look

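A library far from the others of its group was looked for in 69 groups of 4 libraries. These were the groups of the 8 genes and of the 3 related genes of smallest p in each comparison. The tested overlapping models and the neighbours Mrpl50, Tfg and 4632411P08Rik were also included. Other related genes named in the text were not looked at in this way. Of the 69 groups, 3 held such a library, by a test whose chance rate is about 1 in 20 groups. None of the 3 was among the 24 groups of the 8 genes. Tor1aip1 was at 25.1 CPM in ipsilateral 1, against 19.0 to 19.9 CPM in the other ipsilateral libraries. Ssx2ip was at 91.2 CPM in ipsilateral 1, against 75.0 to 77.3 CPM in the others. Tfg was at 46.4 CPM in ipsilateral 4, against 50.1 to 50.6 CPM in the others. The test looks for a single library, so it did not pick out Brinp2, where ipsilateral 1 and ipsilateral 3 stood apart together at 132.7 and 131.9 CPM.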

How the results depend on the processing

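Some alternatives left out each library, or each summed mouse, in turn. The others used other scaling factors, no filter, DESeq2, limma voom, the 2 compared groups alone or the replicate block. Over the 8 genes, both sides and the summed mice, they gave 408 log2 fold changes against naive. All 408 were negative, each within the spread between libraries of the value given. These values share most of their libraries, and the genes were chosen to be lower than naive, so this is a description. Counts of genes passing were less settled, and the cause was not tested. In ipsilateral against naive, 0 genes passed as given, 9 with DESeq2, 7 with the 2 compared groups alone and 0 to 2 with a library left out (2 without contralateral 1 or contralateral 4). In contralateral against naive it was 0 as given, 3 with DESeq2, 1 with the 2 groups alone and 0 to 2 with a library left out (2 without contralateral 4). In CCI mice against naive mice it was 0 as given, 5 with no filter, 31 with DESeq2 and 0 to 6 with a mouse left out. In contralateral against ipsilateral it was 0 as given, 0 to 159 with a library left out and 286 without both libraries of CCI number 2. In that comparison 0 to 1 of the 70 related genes passed with a library left out and 3 without both of number 2: Plxna3 (0.44, adjusted p = 0.0137), Plxnb2 (0.32, adjusted p = 0.0443) and Kctd12 (0.38, adjusted p = 0.0352), by edgeR and named after their values were seen. Related genes with all CCI libraries below naive numbered 0 of 70 as given (0.272% of all tested genes) and 0 to 2 with a library left out, 1 without naive 1 (0.512%) and 2 without naive 3 (0.582%). With the replicate number as a block, 1 gene passed in ipsilateral and 1 in contralateral against naive, and 0 in contralateral against ipsilateral, also with the CCI libraries alone (chosen after seeing the data). Deviations of same-numbered libraries correlated at -0.14 to 0.06 between the sides and at -0.09 to 0.10 between either side and naive, and between the sides 1 of 8 libraries correlated best with its own number, and the block was kept as an alternative, although both sides of a number were read as one mouse from the codes when counts were summed by mouse. Small differences changed sign when a library was left out, and the others between the sides ranged from 0.14 to 0.44 for Abi3bp, 0.044 to 0.21 for Zfp189, -0.33 to -0.18 for Lmbr1 and -0.18 to -0.053 for Sh3kbp1. Between the sides the range was -0.060 to 0.023 for Tmem260, -0.16 to 0.033 for Klhl14, -0.0057 to 0.095 for Lmo7 and -0.029 to 0.091 for Brinp3. Against naive it was -0.086 to 0.17 (ipsilateral) and -0.035 to 0.41 (contralateral) for C79130, -0.28 to 0.22 and -0.17 to 0.094 for 4632411P08Rik, and -0.063 to 0.037 (contralateral) for Mrpl50. Low counts limit 4632411P08Rik (SE 0.38 against naive) and 4930426D05Rik (SE 0.55 and 0.53).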

Other observations

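Each of the 8 genes was set against all other tested genes by the root mean square (RMS) difference of log2 CPM centred on the gene's mean over the 12 libraries. Abi3bp was nearest to Klhl14 (RMS difference 0.26, where the RMS of Abi3bp itself was 0.61) and then to Tgtp2, an interferon-inducible GTPase (0.36). Brinp3 was nearest to Lmo7 (0.12, own RMS 0.25) and then to Wdr73 (0.15). For the others the nearest genes were not members: Epha5, an ephrin receptor, at 0.09 and Dtl at 0.10 for Lmo7 (own RMS 0.18), Tnfaip8l3 and Abca4 at 0.15 each for Zfp189 (0.28), and Fastkd1 at 0.09 and Rbm45 at 0.10 for Sh3kbp1 (0.16). Klhl14 was nearest to Gm43536 (0.21) and Uox (0.25, own RMS 0.47), and Tmem260 to Gm17249 (0.27) and Gm20501 (0.30, own RMS 0.50). Lmbr1 was nearest to Ppp1r2-ps2 at 0.14 and Ppp3cc, a calcineurin catalytic subunit, at 0.15 (own RMS 0.24). Tgtp2, Gm43536, Uox, Gm17249 and Gm20501 were low, with group means between 0.44 and 1.45 CPM, so their likeness carries much counting error. All share the same libraries, so likeness here includes whatever those libraries share. The members were chosen for lying below naive in these libraries, so likeness between members follows in part from that choice and is a description. The same nearest genes came out with the other scaling factors.

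In the deposited GO terms, neuron projection was held by Klhl14, Brinp3 and Sh3kbp1 and by 5.62% of tested genes, and neuronal cell body by Klhl14 and Brinp3 and by 2.56%. Focal adhesion was held by Lmo7 and Sh3kbp1 and by 2.35%, and regulation of cell adhesion by Abi3bp and Lmo7 and by 2.93%. Membrane was held by 5 of the 8 and by 41.2% of tested genes. GENCODE M21 lists between 2 transcripts (Klhl14 and Zfp189) and 16 (Lmo7) for these genes. The deposited counts are per gene, so a change in the use of transcripts was not analysed here.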
